A study of Mus musculus with 4 samples.

Results

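Late erythroblasts, the sorted population R4, were compared with basophilic erythroblasts, the sorted population R3, over the 3200 of 19564 listed genes that reached 10 RPKM in R3 or in R4. RPKM is a read count divided by gene length and by library size. Of these genes, 1719 reached 10 RPKM in both populations, 1447 in R3 only and 34 in R4 only. The cells were mouse fetal liver cells of stage E14.5, stained for the erythroid antigen TER119 and for CD71, the transferrin receptor, and sorted into R2, R3, R4 and R5 in order of maturation. Per the labels, R3 held early and late basophilic erythroblasts and R4 mostly polychromatophilic and orthochromatophilic ones, while R2 held proerythroblasts with early basophilic cells and R5 late orthochromatophilic cells with reticulocytes. RNA came straight from the freshly sorted cells of each population, with no culture and no treatment named, and RNA enriched for polyadenylated transcripts gave 1 library per population. All 4 populations shared tissue and age. A population is a sort gate holding a mixture of stages, and the labels name no strain, number of embryos or pooling. With 1 library each, every difference describes these libraries and has no replicate check.

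Between the basophilic and the orthochromatophilic stage an erythroblast leaves the cell cycle, closes its chromatin and fills with hemoglobin, after which it expels its nucleus and becomes a reticulocyte. Transcription declines while globin messages persist, ribosomes and mitochondria are cleared through ubiquitin-dependent proteolysis and autophagy, and the membrane takes the composition of the red cell. In bulk RNA, fewer cells of a type and less RNA per cell cannot be told apart, and RPKM gives shares of a library and not molecules per cell.

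R4 differed from R3 first in the share of the summed RPKM that globin genes held, 59.4% in R3 and 80.4% in R4. RPKM divides by gene length, so this is not a share of reads. Beside that shift in globin, a small group of genes was at least 2-fold higher in R4 as deposited. Its highest ratios among well-covered genes were those of the nuclear export receptor Xpo7 and of Tmcc2, Tcp11l2 and Ankrd43, and among genes of known function it also held the 2,3-bisphosphoglycerate enzyme Bpgm, the survival protein gene Bcl2l1, the glucose transporter Slc2a1 and the ubiquitin enzymes Ube2h, Trim58 and Ube2o. At the other end stood the genes of DNA replication, with Pcna going from 651 to 162 RPKM. Of these, 40 of 41 were at least 2-fold lower in R4 as deposited, beside 58.3% of all compared genes. Ubiquitin and autophagy genes lay at the high end of the gene lists, and ribosomal protein, splicing and chromatin modifier genes at the low end.

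Ratios are log2 of (R4 + 1) over (R3 + 1), in RPKM, and a gene was called higher or lower at a 2-fold ratio, which is 1 on the log2 scale. As deposited, 38 genes (1.19%) were higher in R4 and 1867 (58.3%) lower, with a median ratio of -1.09 and quartiles of -1.33 and -0.72. After each library was scaled by the median of its gene ratios over the 2745 genes at 5 RPKM or more in all 4 libraries, 302 genes (9.44%) were higher, 16 (0.5%) lower, and the median was -0.086. After removal of the globin genes with the rest rescaled to a common sum, 147 (4.6%) were higher, 184 (5.76%) lower, and the median was -0.48. Of the calls, 1.99% were toward R4 as deposited, 94.97% with median-ratio scaling and 44.4% with globins removed. The scalings thus moved the zero by about 1 log2 unit. List medians below are read beside the median of all 3200 genes under the same scaling. Counts called in a list are read beside the shares of all 3200 genes given here. The median was -1.18 for genes under a mean of 10 RPKM and -0.67 for those over 100. A compared gene under a mean of 10 must reach 10 RPKM in only 1 of R3 and R4. Genes did so in R3 for 1447 and in R4 for 34. The filter thus shapes the ratio of the low genes, and the difference is not read as an effect of level.

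**Figure D1:**
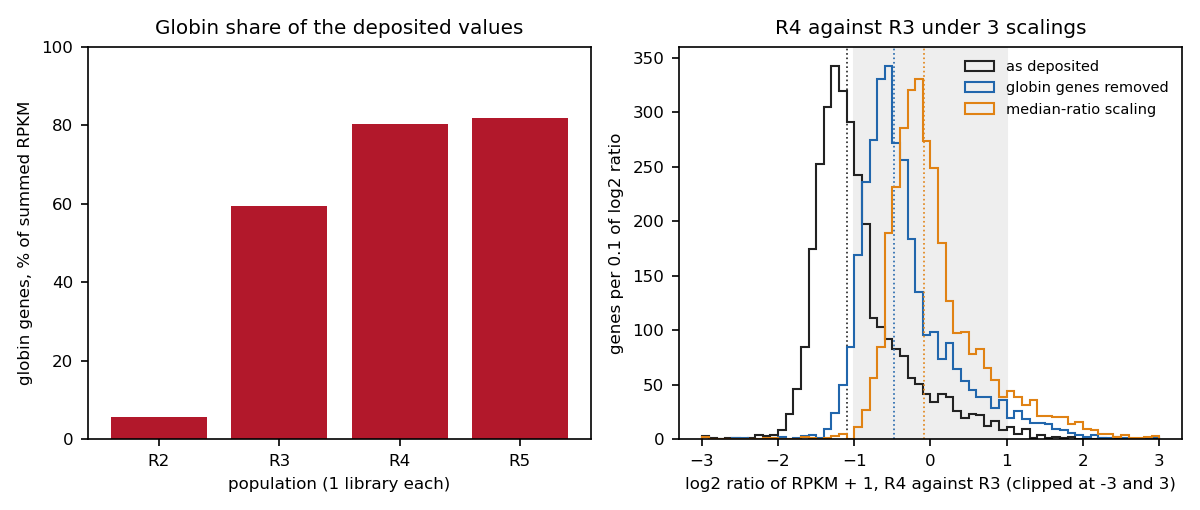
Left, globin genes as a percentage of the summed RPKM in each population (1 library each), with 59.4% in R3 and 80.4% in R4. Right, the number of genes per step of the log2 ratio of R4 against R3 under 3 scalings, where dotted lines are the medians (-1.09, -0.48 and -0.086) and the grey band lies within 2-fold, so the same distribution slides past the 2-fold limits.

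The labels were checked against erythroid markers. Slc4a1, the anion exchanger band 3, was at 2342 RPKM in R3 and 2667 in R4, and 164 in R2. The CD71 gene Tfrc stood at 133 RPKM in R3 and 74.4 in R4, a ratio of -0.83 as deposited and -0.17 with globins removed, but 0.24 with median-ratio scaling. CD71 protein was the sort criterion, and the direction of its messenger between these 2 gates turned with the scaling. Both libraries were deep, at about 25625000 reads for R3 and 27420000 for R4 as implied by the smallest steps between values, so that 10 RPKM over 1 kb stood for 256 and 274 reads. Of the 3200 genes, 3165 had an estimate of reads, and 37 were backed by under 30.

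Both rescalings raised the ratio of nearly every gene, so the 38 genes called higher as deposited stayed past 2-fold under them by construction, and this is no check of their stability. For 34 of the 38 the value in R4 rested on an estimated 30 reads or more. The rest were Gapdh, Rnu12 and LOC218963, with 1, 5 and 12 reads in R4, and 1 entry listed under a number in place of a symbol. Gapdh was listed at 0 in R3 and 36.5 RPKM in R4, which was 1 read, so it is not read as a change.

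Xpo7 had the highest ratio among well-covered genes. It encodes exportin 7, which carries proteins out of the nucleus. It was at 30.1 RPKM in R3 and 146 in R4 (5.17 in R2, 53.4 in R5), a ratio of R4 against R3 of 2.24 as deposited, 3.31 with median-ratio scaling and 2.91 with globins removed. R4 was thus the peak, and R5 stayed above R3 as deposited. Other exportins took lower ratios. Xpo1, the main export receptor for proteins, went from 11.8 to 3.47 RPKM, a ratio of -1.51 as deposited and -0.60 with median-ratio scaling. Xpo5, which exports microRNA precursors, went from 7.76 to 2.66 RPKM and lay under the 10 RPKM limit in both libraries.

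Tmcc2, a gene for a transmembrane coiled-coil protein, was the most abundant of the 38. It was at 503 RPKM in R3 and 1776 in R4 (52.8 in R2, 991 in R5), with a ratio of 1.82. In R4 it stood at about the level of Alas2, the first enzyme of erythroid heme synthesis, which was at 1797 RPKM. Tcp11l2 went from 19.8 to 68.5 RPKM (1.74), and Ankrd43, now Sowaha, from 27.3 to 86.8 (1.63). Tbcel, a tubulin cofactor-like gene, went from 17.3 to 51.1 (1.51), and 2810453I06Rik, now Fam220a, from 31.2 to 88.3 (1.47).

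Metabolic and survival genes formed a second group among the 38. Bpgm makes 2,3-bisphosphoglycerate, which lowers the oxygen affinity of hemoglobin. It was at 62.4 RPKM in R3 and 194 in R4 (15.04 in R2, 134 in R5), a ratio of 1.62. Slc2a1, the glucose transporter GLUT1, was at 419 RPKM in R3 and 999 in R4 (51.1 in R2, 649 in R5), a ratio of 1.25. Both were at least 2-fold higher than in R3 while most enzymes of glycolysis were not. Of the 15 glycolysis genes, 9 were called lower in the deposited values, beside 58.3% of all compared genes. After median-ratio scaling 0 were called lower, and after globin removal 2. Those called higher as deposited were Bpgm, Slc2a1 and Gapdh. Pklr, the erythroid pyruvate kinase, went from 258 to 79.2 RPKM (-1.69), and Pfkm, a phosphofructokinase, from 22.5 to 6.52 (-1.64). Bcl2l1, which encodes the anti-apoptotic protein Bcl-xL, was at 119 RPKM in R3 and 338 in R4 (18.2 in R2, 263 in R5), 2.84-fold higher in R4. Of the 9 genes in its list of survival and death genes, 5 were at least 2-fold lower as deposited, a share near the 58.3% of all compared genes, and the list median was -1.22. The lower ones included the pro-apoptotic Bak1, from 13.0 to 3.71 RPKM, and the chaperone Hspa8, from 495 to 174. Bnip3l, also on that list, went from 30.4 to 44.4 RPKM (0.53). With median-ratio scaling 0 of the 9 were called lower and 2 higher, and with globins removed 1 lower and 2 higher.

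Other genes of the 38 act on lipids, RNA and signalling. Lpin2, a phosphatidate phosphatase, went from 19.7 to 53.0 RPKM (1.38). Fam46c, now Tent5c, a poly(A) polymerase, was at 144 RPKM in R3 and 352 in R4 (13.1 in R2, 149.7 in R5), so its R5 value was back near that of R3. Dyrk3, a protein kinase, went from 15.9 to 39.3 RPKM (1.26). The remaining genes of the group are named here after their values were seen. They included Phospho1, a phosphatase of phosphocholine and phosphoethanolamine, from 86.1 to 202 RPKM (1.22), and Ypel4, from 199 to 407 (1.03), with its relative Ypel3, from 67.6 to 146 (1.10). Neat1, the long noncoding RNA of paraspeckles listed as 2310043N10Rik, went from 10.8 to 24.6 RPKM (1.11).

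**Figure D2:**
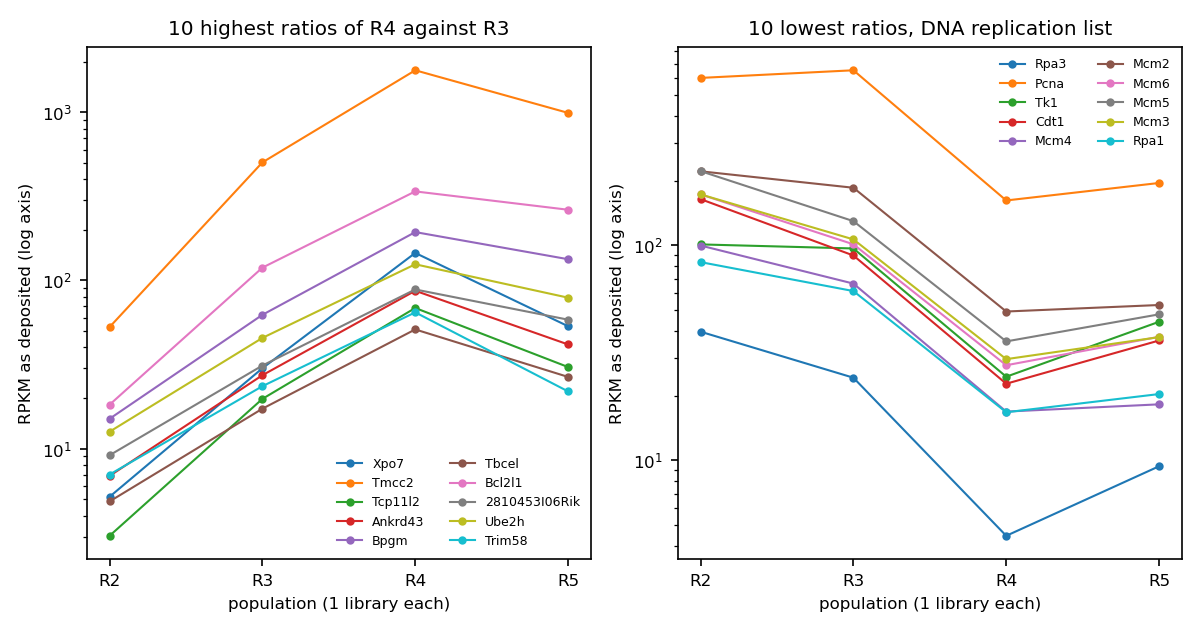
RPKM as deposited (log axes) in R2, R3, R4 and R5, 1 library each, for the 10 well-covered genes with the highest ratio of R4 against R3 (left) and the 10 DNA replication genes with the lowest (right). On the left each line peaks in R4, with Tmcc2 at 1776 RPKM, and on the right each falls between R3 and R4, with Pcna going from 651 to 162.

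Promoter letters are shown for the 3 highest and 3 lowest genes called under all scalings that had an entry in the RefSeq promoter table of build GRCm38.p6 (Xpo7, Ankrd43 and Stmn1 had none), so that the ends of the ratio can be compared base by base. Each is the 100 bases just before the annotated start, 5′ to 3′ on the gene's strand, in lower case with motif matches in capitals. Motifs searched on both strands were GATA (written AGATAA or AGATAG or TGATAA or TGATAG), the CACCC type bound by erythroid Krüppel-like factors (CCNCNCCC) and E2F (written TTGGCGC or TTCCCGC or TTGCCGC or TTCGCGC), and matches of 2 motifs may share bases. Tmcc2, Tcp11l2 and Bpgm are the higher genes, and Tac2, Rpa3 and Erh the lower ones. The windows are chr1:132391387-132391486 on the minus strand for Tmcc2, chr10:84576847-84576946 on the plus strand for Tcp11l2 and chr6:34476256-34476355 on the plus strand for Bpgm. Those of the lower genes are chr10:127724378-127724477 on the plus strand for Tac2, chr6:8259142-8259241 on the minus strand for Rpa3 and chr12:80644112-80644211 on the minus strand for Erh.
Tmcc2: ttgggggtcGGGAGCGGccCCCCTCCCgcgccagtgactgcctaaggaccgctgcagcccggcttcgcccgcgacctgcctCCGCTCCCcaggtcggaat
Tcp11l2: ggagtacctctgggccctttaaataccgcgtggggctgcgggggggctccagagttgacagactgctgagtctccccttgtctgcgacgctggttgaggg
Bpgm: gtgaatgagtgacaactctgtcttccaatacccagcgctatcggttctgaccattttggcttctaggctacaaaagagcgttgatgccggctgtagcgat
Tac2: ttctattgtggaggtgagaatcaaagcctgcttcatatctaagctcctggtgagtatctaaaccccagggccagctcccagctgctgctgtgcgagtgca
Rpa3: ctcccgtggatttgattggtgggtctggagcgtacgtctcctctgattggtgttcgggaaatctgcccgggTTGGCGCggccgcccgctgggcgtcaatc
Erh: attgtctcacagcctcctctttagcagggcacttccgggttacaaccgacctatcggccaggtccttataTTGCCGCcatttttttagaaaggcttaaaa

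Capitals in the Tmcc2 window are CACCC-type matches, 3 in all, and those in the Rpa3 and Erh windows are 1 E2F match each. The windows of Tcp11l2, Bpgm and Tac2 held none of these letters. Over the 250 bases before the start, 24 of the 29 higher genes with an entry (82.8%) held a CACCC-type match, beside 64.9% of the 2609 compared genes with an entry and 45.6% of all 27025 promoters. E2F letters were in 0 of those 29, beside 18.0% of the compared genes and 7.97% of all promoters. Of the 36 DNA replication genes with an entry, 13 (36.1%) held E2F letters, and 22 (61.1%) a CACCC-type match. Of the 10 genes lower under all scalings with an entry, 2 (20%) held E2F letters, those of the windows shown, and 5 (50%) a CACCC-type match, both on few genes. GATA letters were in 20.7% of the higher genes, 17.0% of the compared genes and 27.1% of all promoters. A match describes letters and is not evidence of binding.

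The erythroid ubiquitin enzymes, which mark proteins of the maturing cell for destruction, had the highest median ratio of the lists after globin. Of 22 genes, 4 were at least 2-fold higher as deposited and 3 lower, with 12 higher under median-ratio scaling and 11 once globins were left out, and none lower under either. The median was 0.22 as deposited, 1.29 with median-ratio scaling and 0.89 with globins removed. Of the 22, 19 lay above the median of all compared genes. Ube2h, an E2 enzyme, was at 45.5 RPKM in R3 and 125 in R4 (12.6 in R2, 79.0 in R5), a ratio of 1.43. Trim58, a ligase that degrades dynein in late erythroblasts, was at 23.5 RPKM in R3 and 64.6 in R4 (7.01 in R2, 21.9 in R5), a ratio of 1.42, so that its R5 value lay below that of R3. Ube2o, which strips ribosomes from reticulocytes, was at 124 RPKM in R3 and 297 in R4 (24.7 in R2, 185 in R5), a ratio of 1.25. Fbxo30, an F-box protein, completed the group called higher, at 10.5 RPKM in R3 and 23.4 in R4 (1.08). Trim10 went from 297 to 465 RPKM (0.64), Ube2l6 from 347 to 514 (0.56) and the polyubiquitin gene Ubb from 548 to 785 (0.52), each within 2-fold as deposited and past it under both other scalings. At the low end were Keap1, the adaptor that targets Nfe2l2 for degradation, from 22.9 to 8.99 RPKM (-1.26), and Ube2k, from 12.1 to 4.68 (-1.20).

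Proteasome subunits did not follow the ubiquitin enzymes. Of 39 genes, 24 were called lower in the deposited values and 0 after either rescaling, with a median of -1.11 close to that of all compared genes. Psmd3 of the regulatory particle went from 79.0 to 25.04 RPKM (-1.62). The alternative cap subunit Psme3 stood out at 120 RPKM in R3 and 137 in R4, a ratio of 0.20, which was 1.28 with median-ratio scaling.

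Autophagy and mitophagy genes, which serve the clearance of mitochondria and other organelles, had a median of 0.16 as deposited, 1.20 with median-ratio scaling and 0.81 with globins removed. Of the 20, 0 were at least 2-fold higher as deposited and 3 lower, while 11 and 5 were higher under the rescalings, with 0 lower. Pink1, the kinase that marks damaged mitochondria, went from 28.9 to 51.3 RPKM (0.81), and Ulk1, the kinase that starts autophagy, from 31.9 to 53.2 (0.72). Sqstm1, the cargo receptor p62, went from 45.6 to 70.1 RPKM (0.61). Bnip3l, the mitophagy receptor NIX of reticulocytes, was at 30.4 RPKM in R3 and 44.4 in R4 (17.4 in R2, 24.5 in R5), a ratio of 0.53 that passed 2-fold under both rescalings. Foxo3, a transcription factor of autophagy genes, went from 81.7 to 98.7 RPKM (0.27), and Gabarapl2, a membrane tag of autophagosomes, from 96.8 to 120 (0.31). Those called lower as deposited were Wipi1, from 27.9 to 9.81 RPKM (-1.42), the lysosomal membrane protein Lamp1, from 59.7 to 25.6 (-1.19), and the protease Atg4b, from 19.5 to 8.14 (-1.16). None of these 3 passed 2-fold after rescaling. Conjugation enzymes such as Atg3, Atg5 and Atg7 were under 10 RPKM in both libraries.

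**Figure D3:**
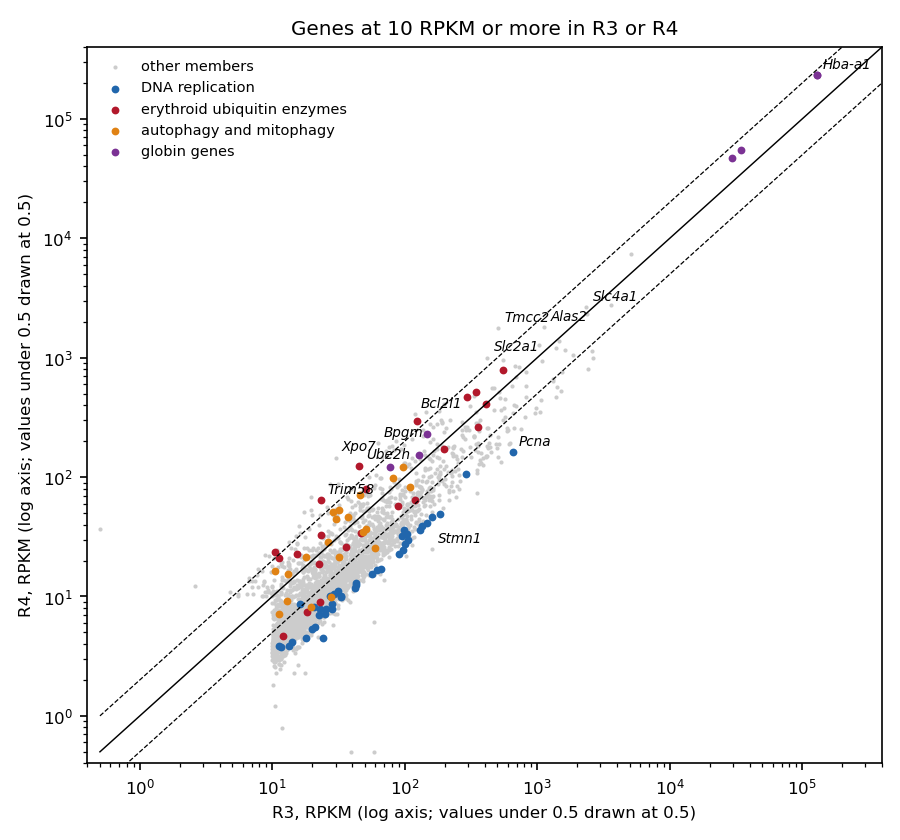
RPKM in R4 against RPKM in R3 (log axes, 1 library each) for the 3200 genes at 10 RPKM or more in either, with 4 gene lists in colour, the line of equal values and dashed lines at a 2-fold ratio of RPKM. The cloud lies below the line of equal values, DNA replication genes mostly below its lower dashed line, and ubiquitin, autophagy and globin genes mostly at the upper edge of the cloud.

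The 7 globin genes that reached 10 RPKM were all between 0.26 and 0.84 on the log2 scale as deposited, within 2-fold, and all past it with median-ratio scaling. Hba-a1 went from 128567 to 230890 RPKM, and Hba-a2 held identical values in 4 of 4 populations, so that the same reads may have been credited to both. Counted once, alpha-globin left the globin share at 46.7% in R3 and 70.7% in R4. Beta-globin ratios were 0.67 for Hbb-b1 (29661 RPKM in R3, 47348 in R4) and 0.67 for Hbb-b2 (34559 and 54999), and reads of these near-identical copies could have been split. The embryonic Hba-x went from 77.0 to 120 RPKM (0.64), Hbb-y from 148 to 230 (0.63) and Hbb-bh1 from 128 to 153 (0.26). Each of these embryonic ratios lay below those of the adult genes, Hbb-bh1 by the most, and the difference was not tested.

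Heme synthesis did not move as 1 block. Its 12 genes had a median of -0.73 as deposited, 0.35 with median-ratio scaling and -0.06 with globins removed, and 11 of them lay above the median of all compared genes. Alas2 was at 1129 RPKM in R3 and 1797 in R4 (75.3 in R2, 1406 in R5), a ratio of 0.67. Fech, which inserts the iron, went from 451 to 554 RPKM (0.30). The middle enzymes had lower ratios, with Alad going from 667 to 399 RPKM (-0.74) and Cpox from 574 to 316 (-0.86). Tmem14c, which brings the porphyrin precursor into mitochondria, was at 529.5 RPKM in R3 and 133 in R4 (364 in R2, 204 in R5). Its ratio was -1.99 as deposited, -0.90 with median-ratio scaling and -1.32 with globins removed, the only one of the 12 called lower as deposited.

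Iron genes split in a similar way, with 0 of 18 called higher as deposited and 6 lower, beside 1.19% and 58.3% of all compared genes. Under median-ratio scaling 4 were called higher and 0 lower, beside 9.44% and 0.5%. Slc25a37, the mitochondrial iron importer mitoferrin 1, was at 1035 RPKM in R3 and 1279 in R4 (93.0 in R2, 605 in R5), a ratio of 0.31. Hscb, a co-chaperone of iron-sulfur cluster assembly, went from 30.5 to 53.8 RPKM (0.80). The ferritin chains took different values, Ftl1 going from 2371 to 2323 RPKM (-0.03) and Fth1 from 3621 to 2743 (-0.40). On the uptake side, the endosomal ferrireductase Steap3 went from 55.4 to 18.3 RPKM (-1.54), and Trfr2, the second transferrin receptor, from 36.8 to 15.6 (-1.19). Cisd1, an iron-sulfur protein of the outer mitochondrial membrane, had the lowest ratio of the list, from 24.1 to 6.93 RPKM (-1.66).

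The membrane skeleton, the spectrin-based lattice under the red cell membrane, lay above the general median. Of 18 genes, 17 did, with a median of -0.25 as deposited, 0.84 with median-ratio scaling and 0.42 with globins removed. Epb4.1, encoding protein 4.1R, which joins spectrin to actin, was at 181 RPKM in R3 and 355 in R4 (57.7 in R2, 217 in R5), a ratio of 0.97 just under the 2-fold limit. Mpp1, the membrane palmitoylated protein p55, went from 50.2 to 73.7 RPKM (0.55). The spectrins were nearer to equal, with Spna1 going from 90.7 to 86.1 RPKM (-0.08) and Spnb1 from 277 to 216 (-0.35). Slc4a1, given above as a marker, had a ratio of 0.19. Tpm3, a tropomyosin, was the single gene of the list called lower, from 19.96 to 8.49 RPKM (-1.14).

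Among 31 genes of the red cell surface and its transporters, 1 was called higher (Slc2a1) and 5 lower in the deposited values, while 8 were higher and 0 lower after median-ratio scaling. Blood group genes were within 2-fold, such as Rhd, from 524 to 456 RPKM (-0.20), Ermap, from 211 to 179 (-0.23), and Rhag, from 101 to 82.7 (-0.29). Car2, the carbonic anhydrase of the red cell, went from 1387 to 1202 RPKM (-0.21). The lowest ratios belonged to Slc29a1, the nucleoside transporter ENT1, from 113 to 30.9 RPKM (-1.84), and Atp1b2, a sodium pump subunit, from 22.7 to 6.51 (-1.66). Both stayed called lower with globins removed, at -1.18 and -1.06.

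Erythroid transcription factor genes spread over more than 2 log2 units. Of 25, 0 were called higher and 7 lower in the deposited values, 8 and 0 after median-ratio scaling, and 3 and 2 after globin removal. Mxd1, a partner of Max that opposes Myc, had the highest ratio, from 39.2 to 62.6 RPKM (0.66), and Mafk and Nfe2, which bind DNA together, went from 53.1 to 68.9 (0.37) and from 204 to 258 (0.34). The master regulators had lower ratios: Klf1 went from 418 to 257 RPKM (-0.70), Gata1 from 161 to 90.7 (-0.82) and Tal1 from 156 to 103 (-0.60). Each of these ratios still lay above the median of all compared genes, -1.09 as deposited. Their cofactor Ldb1, which joins distant enhancers to promoters, was at 88.3 RPKM in R3 and 26.5 in R4 (193 in R2, 41.3 in R5), a ratio of -1.70, with -0.64 and -1.04 under the rescalings. Bcl11a, a repressor of embryonic and fetal globin genes, went from 10.7 to 3.50 RPKM (-1.38), and Zbtb7a, another such repressor, from 62.1 to 24.2 (-1.33). In the erythropoietin pathway, the receptor Epor went from 200 to 97.0 RPKM, a ratio of -1.03 that became 0.045 with median-ratio scaling, while the kinase gene Pim1 went from 192 to 283 (0.56).

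DNA replication was the list with the lowest median: -1.68 as deposited, -0.66 with median-ratio scaling and -1.06 with globins removed, in each case below the median of all compared genes. As deposited 40 of 41 were called lower, 26 with globins removed and 1 with median-ratio scaling, under which 40 of 41 still lay below 0. The shares of all compared genes called lower were 58.3%, 5.76% and 0.5% in the same order. Pcna, the sliding clamp of the polymerases, was at 651 RPKM in R3 and 162 in R4 (600.1 in R2, 195 in R5), 4.03-fold lower in R4. Rpa3, a subunit of the single-strand binding protein, was at 24.2 RPKM in R3 and 4.46 in R4 (39.7 in R2, 9.39 in R5), a ratio of -2.21 that was -1.25 with median-ratio scaling. Helicase subunits were alike, with Mcm2 going from 185 to 49.2 RPKM (-1.89), Mcm4 from 66.4 to 16.9 (-1.92) and Mcm7 from 160 to 45.9 (-1.78). Cdt1, which loads them, went from 89.7 to 22.7 RPKM (-1.93), and Tk1, the thymidine kinase of S phase, from 96.7 to 24.5 (-1.94). Rrm2, of ribonucleotide reductase, differed in course: it was at 291 RPKM in R3 and 106 in R4 (128 in R2, 102 in R5), so that R3 was its peak. Dbf4, an activator of origin firing, had the ratio nearest to 0, from 16.2 to 8.66 RPKM (-0.83).

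Genes of G1 control as a list lay near all compared genes, with 9 of 15 called lower and 0 higher as deposited and a median of -1.15. With median-ratio scaling 0 of the 15 were called lower and 4 higher, and with globins removed 1 lower and 2 higher. Single genes around S phase are given by their values as deposited, and Slbp and Dnmt1 among them are not on the G1 list. Ccne1, the G1-S cyclin, went from 65.4 to 15.6 RPKM, 4.2-fold lower. Slbp, which binds and processes histone messages, was at 113 RPKM in R3 and 27.1 in R4 (88.1 in R2, 27.3 in R5), a ratio of -2.02. Dnmt1, the maintenance DNA methyltransferase, went from 99.4 to 36.1 RPKM (-1.44), and Ccnd3, the D cyclin of erythroblasts, from 349 to 115 (-1.60). The 2 highest ratios of the G1 list were those of the cycle inhibitors Cdkn1b (p27), from 13.5 to 20.9 RPKM (0.60), and Gadd45a, from 99.1 to 187 (0.91). Both were within 2-fold as deposited and past it under both rescalings. Other inhibitors on the list, such as Cdkn1a and Cdkn2c, are not given here, so these genes do not stand for inhibitors as a class.

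Mitosis genes lay nearer to the median of all compared genes. Of 40, 19 were called lower as deposited, 0 were with either rescaling, and 27 lay above the median of all compared genes; their median was -0.99 as deposited, 0.07 with median-ratio scaling and -0.34 with globins removed. Fzr1, the activator of the anaphase-promoting complex in late mitosis and G1, was at 188 RPKM in R3 and 302 in R4 (66.5 in R2, 265 in R5), a ratio of 0.68. The E2 enzymes of that complex, Ube2c and Ube2s, went from 411 to 407 RPKM (-0.02) and from 512 to 514 (0.00). Cdc25b, a phosphatase that starts mitosis, went from 283 to 262 RPKM (-0.11). At the low end stood Aurkb, the kinase of the chromosomal passenger complex, from 55.4 to 20.9 RPKM (-1.37), and Espl1, separase, from 33.5 to 13.0 (-1.30). The difference between the 2 lists was not tested.

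Of 21 chromatin modifiers, 15 were called lower and 0 higher as deposited, beside 58.3% lower over all compared genes, with a median of -1.33 that became -0.29 with median-ratio scaling and -0.69 with globins removed. Ezh1 and Ezh2, alternative catalytic subunits of Polycomb complex 2, took opposite sides as deposited: Ezh2 went from 24.0 to 8.01 RPKM (-1.47), and Ezh1 from 5.51 to 10.5 (0.82). Suz12, their partner, went from 17.1 to 4.84 RPKM (-1.63). Ezh1 is not one of the 21 but belongs to the list of chromatin condensation and enucleation, and it reached 10 RPKM only in R4. Mta2 and Chd4 of the NuRD complex went from 49.2 to 16.0 (-1.56) and from 38.6 to 14.2 (-1.38). Among 29 genes of chromatin condensation and enucleation, 2 were called higher (Xpo7 and Trim58) and 12 lower in the deposited values, against 6 and 0 after median-ratio scaling, and their median of -0.98 lay near that of all compared genes. Wdr26, a subunit of the CTLH ubiquitin ligase, went from 53.0 to 72.4 RPKM (0.44), and Riok3, an atypical kinase, from 26.5 to 35.4 (0.41). The lowest were Emd (emerin, of the nuclear envelope), from 18.8 to 5.64 RPKM (-1.58), and Myh9, non-muscle myosin IIA, from 44.5 to 14.9 (-1.51). Lmnb1, a nuclear lamin, went from 85.3 to 40.5 RPKM, a ratio of -1.06 that became 0.012 with median-ratio scaling.

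Replacement histones have polyadenylated messages, which most replication-dependent histones lack, and the libraries were enriched for polyadenylated RNA. The list of replacement histones also holds high mobility group chromatin proteins, such as Hmgb1 and Hmgn1, so its counts are not of histones alone. Of its 14 genes, 9 were called lower as deposited, near the 58.3% of all compared genes, with a median of -1.06. With median-ratio scaling 0 were called lower. H1f0, the linker histone of resting cells, went from 15.8 to 3.81 RPKM (-1.81), and H2afz, the variant H2A.Z, from 127 to 42.6 (-1.56), while H3f3a, the variant H3.3, went from 639 to 581 (-0.14). Of the 16 replication-dependent histone genes, 4 were called lower and 0 higher as deposited, and 7 were backed by under 30 reads. Hist1h2bc went from 31.5 to 44.1 RPKM (0.47) and Hist1h1c from 48.2 to 59.1 (0.29).

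Genes of the protein synthesis machinery were mostly called lower in R4 as deposited, as were 58.3% of all compared genes. Of 57 cytosolic ribosomal protein genes, 53 were called lower as deposited, 6 with median-ratio scaling and 15 with globins removed, and the median was -1.48, -0.40 and -0.82. For 11 of them the count was under 30 reads, as with Rps13 at 3 reads in R3 and Rps27 at 1, so single values of such genes are not read. Rplp0, which forms the stalk of the large subunit, was at 1409 RPKM in R3 and 569 in R4 (2502 in R2, 844 in R5), a ratio of -1.31, and its partner Rplp1 went from 2652 to 1001 (-1.40). Mitochondrial ribosomal genes were lower in 36 of 39 as deposited and in 0 after either rescaling, with a median of -1.32. Ribosome biogenesis genes were lower in 20 of 22, with Fbl, the rRNA methyltransferase fibrillarin, going from 92.5 to 28.2 RPKM (-1.68). Of 38 translation factors 29 were lower as deposited, such as Eef1a1, from 1514 to 525 RPKM (-1.53). Pabpc1, which coats poly(A) tails, was an exception at 551 RPKM in R3 and 948 in R4 (709 in R2, 599.5 in R5), a ratio of 0.78. So was Eif5, from 44.7 to 61.3 RPKM (0.45). Eif2ak1, the heme-regulated kinase that slows globin translation, went from 139 to 166 (0.26), and Myd116, now Ppp1r15a, which reverses that step, from 192 to 290.1 (0.59).

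RNA processing, transcription and respiration filled the middle and low end of the lists. Their counts called lower as deposited stand beside 58.3% of all compared genes. Splicing genes were called lower in 36 of 42 as deposited, with a median of -1.29, for example Snrpd2, from 195 to 55.2 RPKM (-1.80). RNA polymerase II and elongation genes were lower in 18 of 26, with a median of -1.20, and Hexim1, the inhibitor of the elongation kinase, lay far from that at 17.0 RPKM in R3 and 16.1 in R4 (-0.07). Oxidative phosphorylation genes were lower in 35 of 56, with a median of -1.09 equal to that of all compared genes. After median-ratio scaling 0 genes of these 3 lists were lower. RNA-binding regulators held exceptions of higher ratio, Cpeb4, a translational repressor of late erythroblasts, going from 46.1 to 59.6 RPKM (0.36) and Rbm38 from 683 to 847 (0.31). Antioxidant genes also lay above the median of all compared genes in 18 of 26. Cat, catalase, went from 93.0 to 173 RPKM (0.89) and Gpx1, glutathione peroxidase, from 5061 to 7370 (0.54), beside Prdx1, a peroxiredoxin, from 13.0 to 3.88 (-1.52).

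**Figure D4:**
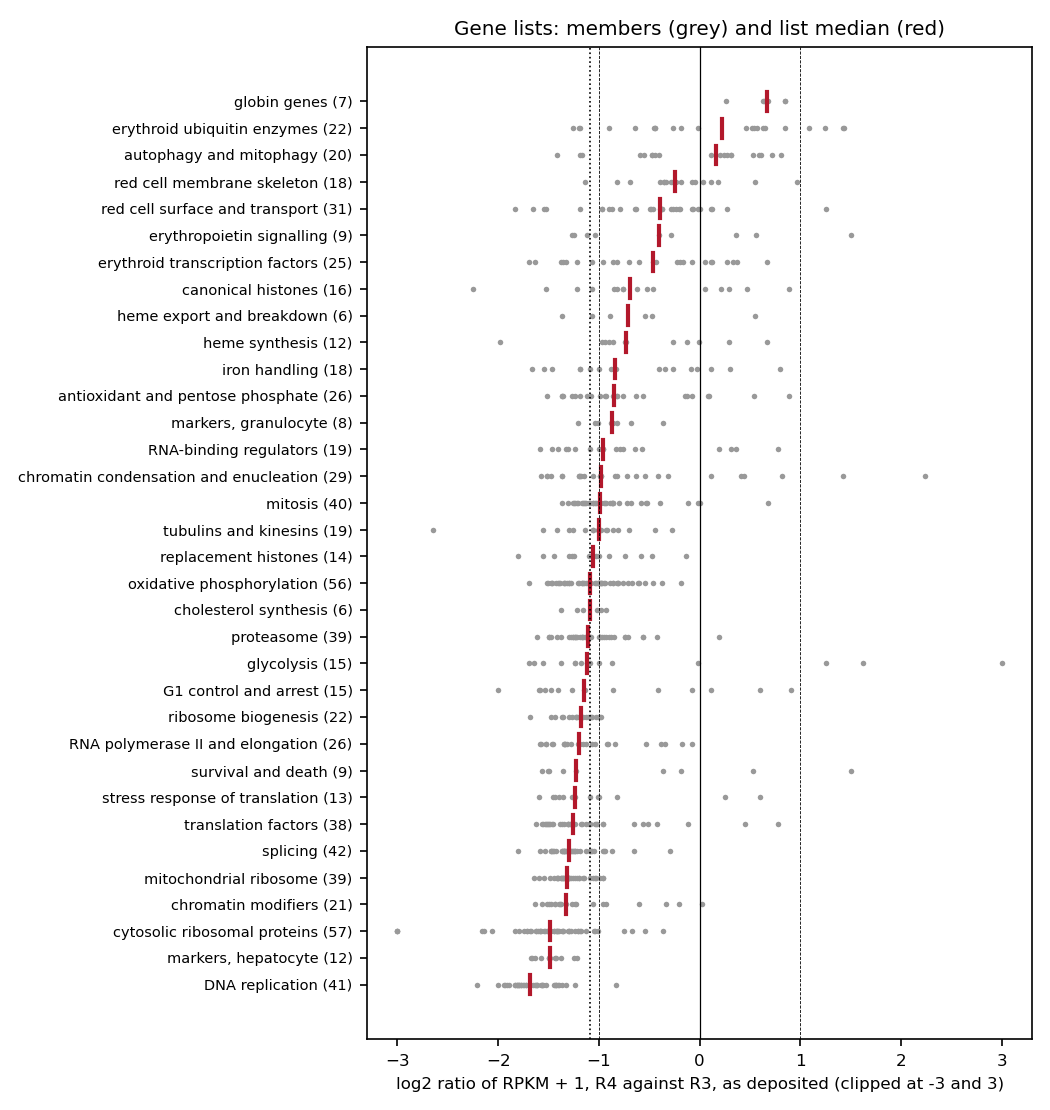
Log2 ratio of R4 against R3 as deposited (clipped at -3 and 3) for the members of each gene list (grey points, number of members in brackets) with the list median (red bar). The dotted line is the median of all 3200 genes (-1.09) and the dashed lines mark 2-fold, with DNA replication (-1.68) at the low end and ubiquitin enzymes (0.22) and globin genes (0.67) at the high end.

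Of the 16 genes called lower under all scalings (0.5%), 6 were backed by 30 reads or more, and the rest were mainly ribosomal protein and small nucleolar RNA genes with few countable reads. Stmn1, stathmin, which destabilises microtubules, was at 161 RPKM in R3 and 24.8 in R4 (267 in R2, 56.0 in R5), a ratio of -2.65 that rested on 103 reads in R3 and 17 in R4. Tubulins were lower by less, Tuba1b going from 1060.0 to 444 RPKM (-1.25) and Tubb5 from 595 to 242 (-1.30). Erh, a small nuclear protein of RNA processing, went from 69.9 to 13.6 RPKM (-2.28), or 120 to 25 reads. Tac2, which encodes a tachykinin precursor, was at 15.6 RPKM in R3 and 2.68 in R4 (2.80 in R2, 2.88 in R5) (-2.17), and R3 was its peak by a wide margin. Rpl39, a ribosomal protein gene with 41 reads in R3, and the kinase-named gene Stk19, from 10.2 to 1.81 RPKM (-1.99), complete the 6 beside Rpa3.

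Genes of other cell types were present, with the largest sums for hepatocyte and granulocyte markers, and are given with their sums over each whole list. All 12 hepatocyte markers that reached 10 RPKM were at least 2-fold lower in R4 as deposited, beside 58.3% of all compared genes. Their median was -1.49, and 2 were at least 2-fold lower with globins removed and 0 with median-ratio scaling. The 22 markers summed to 693 RPKM in R3 and 237 in R4 (295 in R2, 512 in R5), and 1 was at 0 in R3 and 1 in R4. Alb, albumin, went from 161 to 51.1 RPKM (-1.64) and Afp, alpha-fetoprotein, from 138 to 42.8 (-1.67). The 15 granulocyte markers summed to 445 RPKM in R3 and 244 in R4, beside 6337 in R2, with none at 0 and 3 of 8 called lower. Their median of -0.87 lay above that of all compared genes and was 0.19 with median-ratio scaling. The 15 macrophage markers summed to 90.3 and 44.3 RPKM and the 14 matched megakaryocyte markers to 58.6 and 33.5, with 2 of 3 and 1 of 2 called lower, too few to set beside the 58.3% of all compared genes, and 0 of either list at 0 in R3 or R4. Mesenchymal markers summed to 20.2 and 12.9 RPKM, endothelial ones to 21.6 and 9.19 and mast cell ones to 8.06 and 5.04. The 17 matched lymphoid markers summed to 6.93 and 4.56 RPKM, with 8 at 0 in R3 and 4 in R4. Each of these sums was lower in R4 as deposited. So was the summed RPKM of all genes but globin, at 220076 in R3 and 138014 in R4. The part of such cells in the lower calls above was not tested.

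R5 and R2 share no library with R4 against R3, and they gave a second look at the same genes. Of the 38 genes higher in R4, 29 (76.3%) were also past 2-fold toward R5 in R5 against R2 as deposited, beside 6.41% of all compared genes, and 1, Gapdh, was lower. With median-ratio scaling 36 of the 38 (94.7%) were higher, beside 20.1%, and with globins removed 36, beside 15.4%. Their median ratio of R5 against R2 was 2.49 as deposited. Of the 1867 genes lower in R4, 1716 (91.9%) were lower in R5 than in R2, beside 70.8% of all compared genes. After rescaling this share was small: 3 of 16 genes (18.75%) with median-ratio scaling, beside 9.62% of all compared genes, and 59 of 184 (32.1%) with globins removed, beside 22.9%. The peak was in R4 for 34 of the 38 as deposited, beside 228 of 3200 (7.13%), although a high value in R4 is part of what chose them. At the 10 RPKM limit, Bach1 at 10.01 RPKM in R3 and 8.81 in R4 lay just inside, and Arrb2 at 9.98 and 3.96 just outside.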

How the data were processed

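Messenger RNA of 4 sorted fetal liver populations was measured, 1 library each. The values are RPKM as the authors deposited them, per the file headers, for 19564 symbols. Genome build mm9 is named per the submitters' processing notes. The aligner, counter and annotation were not given in the sources used here, and no coordinates come from the files. Depth was worked out from whole-read steps of 174 genes (25625000 reads in R3, 27420000 in R4), and reads of other genes were estimated from exonic length in GENCODE M21, which overstates genes with few countable bases.

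From these values, log2 ratios of RPKM + 1 were computed for genes at 10 RPKM or more in R3 or R4, as deposited, after median-ratio scaling, and with globin genes removed. A ratio on the log2(RPKM + 1) scale understates the change of low genes. Of 1304 entries in 41 gene lists, 1235 matched by symbol, 24 by an older symbol, 9 by synonym, and 36 did not. The comparison, the members and the lists were chosen with earlier results of these data known. Among genes backed by 30 reads, the genes named are the 15 highest and 15 lowest ratios, the 10 highest and 10 lowest called under all 3 scalings, 4 members of each list by level and 2 at each end by ratio, and all members of 7 lists (globin genes, heme synthesis, iron handling, membrane skeleton, transcription factors, autophagy, enucleation). Markers, and those said to be named after their values were seen, are extra. Entries listed under a number in place of a symbol (10 of the 3200) are counted and not named. Some genes that the rule takes are left out of the text. Promoter sequences are from RefSeq (GRCm38.p6), the first start listed for each gene. Alternatives were pseudocounts of 0.1 and 5 RPKM, both rescalings, a filter of 5 RPKM or none, genes backed by 30 reads only, and Hba-a1 and Hba-a2 counted once. The steps were run on simulated data in which most genes were left unchanged, so the run does not check the scalings where most genes differ. Python 3.11.15, numpy 2.4.6, pandas 2.3.3 and matplotlib 3.10.9 were used.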

Additional observations from a re-analysis of the deposited data

How the results depend on the processing

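The counts and the median turned mainly on scaling. The number of genes at least 2-fold higher in R4 went from 38 to 302 with median-ratio scaling, 147 with globins removed and 24 with a pseudocount of 5 RPKM. The number lower went from 1867 to 16, 184 and 967 under the same settings and to 3196 with no filter. The median ratio was -0.086 with median-ratio scaling, -0.48 with globins removed, -1.17 and -0.84 with pseudocounts of 0.1 and 5 RPKM, -1.06 with a filter of 5 RPKM, -0.41 with no filter and -1.10 with genes backed by 30 reads only. Genes past 2-fold under all 3 scalings became 24 higher and 9 lower with a pseudocount of 5 RPKM, and the lower ones 38 with no filter and 6 with genes backed by 30 reads only. Of the genes called higher within each scaling, 91.1% with median-ratio scaling and 91.8% with globins removed were also higher in R5 than in R2. The globin share fell from 59.4% to 46.7% in R3 and from 80.4% to 70.7% in R4 with alpha-globin counted once. The sign changed for 134 of 362 named genes and 16 of 38 list medians with median-ratio scaling, and for 72 of 353 and 5 of 37 with globins removed. Of 19 list medians past 2-fold, 0 and 1 still were. With median-ratio scaling 4 named genes called lower turned above 0, Rplp2 at 0.074, Epor at 0.045, Lmnb1 at 0.012 and Hebp1 at 0.014. Of 150 named genes past 2-fold, 21 still were with median-ratio scaling, 49 with globins removed and 115 with a pseudocount of 5 RPKM. With 1 library per population no spread between samples is known, 37 genes were estimated at under 30 reads, the genes with no estimate were not checked, and estimates from exonic length can be too high. No paired analysis was possible because each population has 1 library and no test was made.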
